A study of Homo sapiens with 3 samples.

Results

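Long noncoding RNA genes were followed in LNCaP-abl cells after silencing of the transcription factor E2F1. The genes were chosen by name and selected on their measured level: symbols ending in -AS1, -AS2, -AS3 or -IT1, or LINC followed by digits, averaging 1 FPKM or more across the 3 libraries. FPKM counts sequenced fragments, scaled to transcript length and library size. Of 22613 listed genes, 332 carried such a name and 151 reached that level: 95 antisense (AS) genes, 55 LINC genes and 1 intronic (IT) gene, ANP32A-IT1. LNCaP-abl is a subline of the prostate carcinoma line LNCaP that grows without androgen, and all cells here were kept in steroid-depleted serum. RNA was sequenced 72 h after lipid transfection with control siRNA (2 libraries, control 0 and control 1) or with pooled siRNAs targeting E2F1 (1 library, siE2F1). There was no untransfected group and no second siRNA against E2F1, and siE2F1 had no replicate. Whether the control libraries were separate cultures is not stated, so p-values rest on a spread that may be technical.

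An antisense gene is transcribed from the opposite strand of the gene it is named after, its partner. Some overlap the exons of the partner, and others start head to head with it and run away from it, sharing a promoter region. LINC names are given to long noncoding RNA genes that lie between protein-coding genes. A few of these RNAs have known roles, as decoys for RNA-binding proteins, hosts of small RNAs or regulators of the neighbouring gene, but for most of them no role is known. The library kit does not mark strand. Reads from overlapping exons of an antisense gene and its partner therefore cannot be told apart, and partner values are given for the genes that passed and for some others.

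The promoters of 6 of these genes are shown, 3 for the size of the gene's difference and 3 for a motif match: 250 bases before and 50 bases after the annotated start, from RefSeq (GRCh38.p14), 5′ to 3′ on the strand of the gene. The first 3 belong to the genes with the largest changes in each direction, and the capitals mark the first 50 bases from the start. They are ENO1-AS1 (chr1:8878585-8878884, plus strand), PITPNA-AS1 (chr17:1516669-1516968, plus strand) and FLVCR1-AS1 (chr1:212858089-212858388, minus strand).
ENO1-AS1: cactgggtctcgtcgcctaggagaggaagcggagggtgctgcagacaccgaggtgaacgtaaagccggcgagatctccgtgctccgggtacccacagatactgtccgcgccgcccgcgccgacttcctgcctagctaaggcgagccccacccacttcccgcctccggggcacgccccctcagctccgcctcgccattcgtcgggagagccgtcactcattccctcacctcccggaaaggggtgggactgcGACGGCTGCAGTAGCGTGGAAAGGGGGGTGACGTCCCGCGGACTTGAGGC
PITPNA-AS1: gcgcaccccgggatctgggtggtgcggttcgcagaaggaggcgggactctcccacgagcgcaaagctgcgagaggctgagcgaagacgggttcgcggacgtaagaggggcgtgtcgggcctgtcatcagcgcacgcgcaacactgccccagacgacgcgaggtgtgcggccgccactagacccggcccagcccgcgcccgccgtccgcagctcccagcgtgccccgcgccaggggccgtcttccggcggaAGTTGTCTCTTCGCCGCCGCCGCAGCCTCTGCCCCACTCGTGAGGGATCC
FLVCR1-AS1: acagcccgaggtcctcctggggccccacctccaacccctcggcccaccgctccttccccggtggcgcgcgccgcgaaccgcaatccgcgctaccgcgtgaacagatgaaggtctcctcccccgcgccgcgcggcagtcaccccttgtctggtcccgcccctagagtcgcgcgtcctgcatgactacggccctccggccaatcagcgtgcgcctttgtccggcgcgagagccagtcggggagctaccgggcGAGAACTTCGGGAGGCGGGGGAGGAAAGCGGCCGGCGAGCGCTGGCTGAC
In the other 3 the capitals mark a match to a motif, TTTNGCGC (E2F-type) for PCNA-AS1 (chr20:5119336-5119635, plus strand) and the interferon-stimulated response element for LINC00875 (chr1:148459871-148460170, minus strand) and FAM13A-AS1 (chr4:88709539-88709838, plus strand). Both motifs were searched on both strands. The PCNA-AS1 window holds 2 overlapping E2F-type matches, 1 on each strand.
PCNA-AS1: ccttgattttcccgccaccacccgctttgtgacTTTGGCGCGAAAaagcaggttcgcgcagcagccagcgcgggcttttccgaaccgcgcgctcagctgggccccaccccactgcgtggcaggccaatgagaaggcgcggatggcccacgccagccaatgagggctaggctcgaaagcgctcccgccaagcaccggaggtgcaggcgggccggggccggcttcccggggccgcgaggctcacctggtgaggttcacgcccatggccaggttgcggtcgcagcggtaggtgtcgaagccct
LINC00875: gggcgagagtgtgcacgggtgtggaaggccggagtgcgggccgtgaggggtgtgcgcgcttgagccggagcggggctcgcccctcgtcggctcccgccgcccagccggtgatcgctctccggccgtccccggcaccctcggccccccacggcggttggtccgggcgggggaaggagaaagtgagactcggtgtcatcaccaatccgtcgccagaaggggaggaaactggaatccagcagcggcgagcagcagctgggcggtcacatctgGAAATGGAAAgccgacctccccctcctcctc
FAM13A-AS1: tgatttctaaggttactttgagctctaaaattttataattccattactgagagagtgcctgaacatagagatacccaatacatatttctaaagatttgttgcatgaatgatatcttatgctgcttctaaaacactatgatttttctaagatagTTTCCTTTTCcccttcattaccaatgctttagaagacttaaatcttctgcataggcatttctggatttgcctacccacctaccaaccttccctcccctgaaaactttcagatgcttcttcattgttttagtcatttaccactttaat

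E2F1 stood at 10.6 FPKM in each control (SD 0.0146, n = 2) and at 1.68 FPKM in siE2F1. That is a log2 fold change of -2.12 (SE 0.0771, limma adjusted p = 0.0106). Differences are on the scale log2(FPKM + 1), and fold values are ratios of FPKM + 1. On this scale changes of low genes look smaller than they are. Differences were tested over 13928 genes of at least 1 FPKM, small RNA genes left out. Of 9 luminal prostate markers 8 were at 1 FPKM or more. The PSA gene KLK3 had 0.152, 0.0531 and 0.156 FPKM (control 0, control 1, siE2F1, as in all lists of 3 values). The summed luminal markers were at 963, 970 and 1052 FPKM. Of the basal markers KRT14 was listed at 0 in all 3 libraries. The summed fibroblast, endothelial and leukocyte markers with a row in the files were between 0.606 and 4.66 FPKM, with LYZ alone reaching 1 FPKM on average (3.66, 3.51 and 3.84 FPKM). Depth is unknown, since the values carry no read counts. In a bulk library, fewer cells that make an RNA and less of that RNA per cell cannot be told apart.

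Most of the 151 genes were expressed at low levels. Their median over the 3 libraries was 2.50 FPKM, against 8.89 FPKM for all genes tested. Of the members, 110 were under 5 FPKM and 17 reached 10 FPKM. The 2 highest, C17orf76-AS1 and PCNA-AS1, made up 40.6% of the summed level. C17orf76-AS1, a host gene of small nucleolar RNAs now named SNHG29 in RefSeq, stood at 372, 392 and 354 FPKM. PCNA-AS1 stood at 166.9, 151.4 and 100.3 FPKM. Next came LINC00493, at 86.8, 90.3 and 96.5 FPKM. RefSeq now lists it as the protein-coding gene SMIM26. WAC-AS1, which starts beside the adaptor gene WAC, was at 31.2, 31.7 and 26.9 FPKM, lowest in siE2F1.

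LINC00152 (CYTOR) was at 22.7, 17.0 and 29.6 FPKM, highest in siE2F1, with the controls far apart. It has a near-identical copy elsewhere in the genome, so its value is uncertain. LINC00938 was at 21.6, 22.5 and 20.6 FPKM. NCBP2-AS2 (19.9, 23.9 and 19.9 FPKM), LINC00665 (17.2, 19.3 and 18.0 FPKM) and ZNF667-AS1 (14.2, 15.1 and 14.4 FPKM) lay within the range of the controls in siE2F1. NCBP2-AS2, LINC00493, LINC00094, LINC00514 and SPTY2D1-AS1 are the 5 members that RefSeq now lists as protein-coding. These 5 genes did not pass the test, with log2 fold changes from -0.37 for LINC00514 to 0.12 for LINC00493. LINC00657, now called NORAD, a decoy for Pumilio proteins, was at 2.38, 2.36 and 2.38 FPKM. LINC00478, now MIR99AHG, the host of a microRNA cluster, was at 3.71, 3.87 and 3.74 FPKM. Both lay within 0.02 log2 units of the control mean.

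The level rule is a threshold on the mean. Just inside it were LINC00899 (0.806, 1.25 and 0.975 FPKM), LINC00470 (1.11, 0.966 and 1.04 FPKM) and TMPO-AS1 (1.26, 1.23 and 0.657 FPKM). Just outside were PARD6G-AS1 (0.941, 0.840 and 1.20 FPKM), LINC00085 (1.02, 0.993 and 0.901 FPKM) and DNAJC27-AS1 (0.0159, 1.39 and 1.51 FPKM). Of the 151 genes, 130 were at 1 FPKM or more in each library. A further 4 had a control mean under 1 FPKM and passed the rule only through siE2F1 (ENO1-AS1, NPPA-AS1, LINC00652 and TSC22D1-AS1), so they had to be higher there. Another 9 were under 1 FPKM in siE2F1, among them FLVCR1-AS1. These reached the rule only through the controls, so they had to be lower in siE2F1 than the control mean. Of the 181 genes with such names under the threshold, 2 were listed at 0 in all 3 libraries.

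In siE2F1 6 of the 151 genes were called higher and 8 lower (limma, adjusted p under 0.05), the 14 shown in the plot of levels per library. ENO1-AS1, 1 of the 6, reached the level rule only through siE2F1 and is given below as values, with no test. FLVCR1-AS1, 1 of the 8, reached it only through the controls and is given the same way. Among all genes tested 10.5% passed, 4.17% higher and 6.36% lower, so the members' counts lie near the background. Of the 110 members under 5 FPKM 5 passed, where 7.23% of the genes tested under 5 FPKM did. Another 24 members had an unadjusted p under 0.05, 38 in all, where 33.4% of all genes tested did. The calls depend on which genes share the variance estimate. With small RNA genes included, 0 members passed limma (29 at an unadjusted p under 0.05; 0.417% of 14401 genes passed), and the adjusted p of the 14 ranged from 0.0949 to 0.132. Without small RNA genes it ranged from 0.0229 to 0.0490. Of the 14 genes, 12 were at 1 FPKM or more in all 3 libraries.

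**Figure D1:**
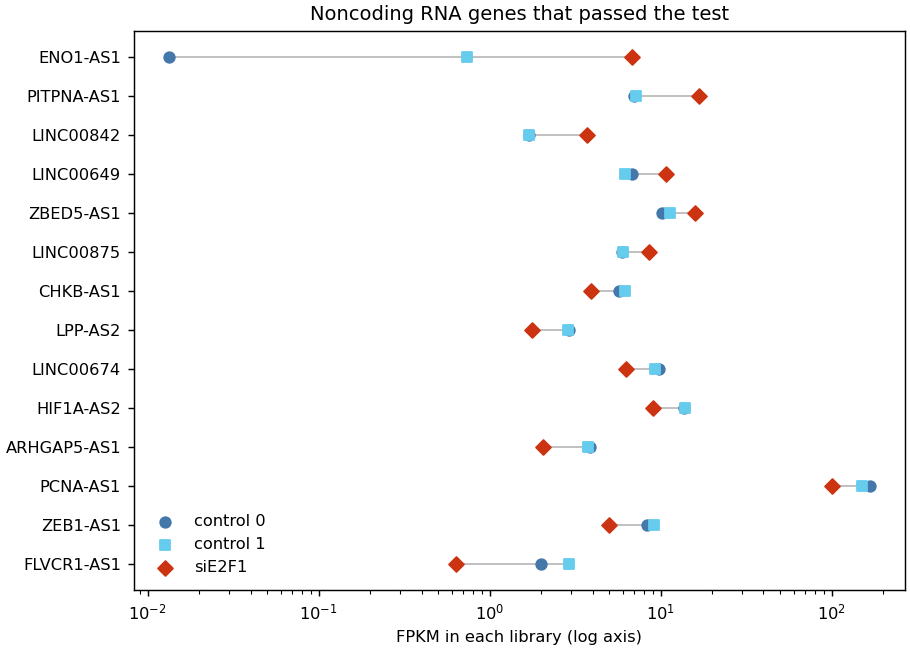
FPKM of the 14 genes that passed the test in control 0 (circles), control 1 (squares) and siE2F1 (diamonds), 1 row per gene, on a log axis. The siE2F1 value lies outside both controls in each row, and the controls lie furthest apart for ENO1-AS1 (0.0133 and 0.735 FPKM).

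ENO1-AS1, antisense to the glycolytic enzyme gene ENO1, was at 0.0133, 0.735 and 6.82 FPKM. The log2 fold change was 2.56, and 4.49 when 0.1 in place of 1 FPKM was added before the log. The controls themselves differed by 0.78 log2 units, and the gene had to be higher in siE2F1 to be a member. ENO1 stood at 417, 447 and 342 FPKM, lowest in siE2F1, and did not pass (log2 fold change -0.34, limma adjusted p = 0.0760). In GENCODE release 29 (GRCh38) the starts of the pair are 415 bases apart on opposite strands, and 126 exon bases of ENO1-AS1, or 27.6% of its exons, overlap ENO1 exons. ENO1-AS1 was at 0.0867% of the ENO1 level in the controls and at 2.00% in siE2F1. What part reads of ENO1 have in this value was not tested.

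PITPNA-AS1 rose from 6.99 and 7.18 to 16.9 FPKM (2.21-fold in FPKM + 1, SE 0.0758 in log2 units, limma adjusted p = 0.0229). It overlaps PITPNA, which encodes a phosphatidylinositol transfer protein, and starts beside INPP5K, an inositol phosphatase gene. PITPNA was at 28.66, 28.97 and 27.88 FPKM, and 69.9% of the exon bases of PITPNA-AS1 (379 bases) overlap its exons. Reads of the pair cannot be told apart there, and what part reads of PITPNA have in the rise was not tested. INPP5K, whose start is 43 bases from that of PITPNA-AS1 on the other strand, was at 6.65, 5.96 and 6.17 FPKM. Neither neighbour passed (limma adjusted p = 0.693 for PITPNA and 0.875 for INPP5K). The PITPNA-AS1 rise of 1.14 log2 units and the differences of -0.05 and -0.03 in its neighbours thus stood side by side in the same libraries.

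Of the antisense genes, ZBED5-AS1 also rose, from 10.2 and 11.3 to 15.8 FPKM (1.43-fold in FPKM + 1, limma adjusted p = 0.0487). ZBED5, the gene of a zinc finger protein, was at 19.2, 21.1 and 19.97 FPKM, within the range of its controls. The pair shares 538 exon bases, in which reads cannot be told apart. The other 3 genes that rose were LINC genes. LINC00842 went from 1.71 and 1.69 to 3.72 FPKM (1.75-fold in FPKM + 1). LINC00649 went from 6.83 and 6.21 to 10.7 FPKM (1.56-fold in FPKM + 1). LINC00875, named LINC01138 in RefSeq, went from 5.97 and 6.05 to 8.52 FPKM (1.36-fold in FPKM + 1). Its window above holds the interferon-type match 19 bases after the start. LINC00842 and LINC00875 lie in regions known for segmental duplications, where copies may share reads, so both values are uncertain. In GENCODE each overlaps another gene on the same strand, with 0 shared exon bases. For LINC00875 this is the protein-coding gene PPIAL4G (59.9, 62.2 and 57.8 FPKM). For LINC00842 it is the pseudogene HNRNPA1P33 (23.8, 21.3 and 22.3 FPKM).

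Among the genes that fell, FLVCR1-AS1 moved furthest, from 1.99 and 2.92 to 0.634 FPKM (2.09-fold lower in FPKM + 1, SE 0.192 in log2 units). It reached the level rule only through the controls, so it had to be lower in siE2F1 and is given as values, with no test. With 0.1 in place of 1 FPKM added before the log, the log2 fold change was -1.77. It starts 167 bases from FLVCR1, a heme exporter gene, and shares no exon bases with it. FLVCR1 was level at 7.92, 7.87 and 7.89 FPKM. ZEB1-AS1, which starts close to the gene of the mesenchymal transcription factor ZEB1, fell from 8.30 and 9.17 to 4.96 FPKM. This was 1.63-fold lower in FPKM + 1 (limma adjusted p = 0.0365). ZEB1 itself was too low to test, at 0.363, 0.331 and 0.321 FPKM.

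In the 83 pairs tested, PCNA-AS1 was the only gene that passed together with its partner. It fell from 166.9 and 151.4 to 100.3 FPKM (1.58-fold lower, limma adjusted p = 0.0378), and PCNA, the sliding clamp of DNA polymerases, fell from 117 and 116 to 67.8 FPKM (log2 fold change -0.77, limma adjusted p = 0.0298). PCNA-AS1 is 384 bases long in RefSeq and lies within PCNA, so its reads cannot be separated from those of PCNA. In its window above the E2F-type matches begin at positions -217 and -213 relative to the start.

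The other 5 genes that fell did so by 1.41-fold to 1.57-fold in FPKM + 1. ARHGAP5-AS1 went from 3.86 and 3.74 to 2.06 FPKM, while ARHGAP5, a GTPase-activating protein gene, was at 20.3, 20.8 and 21.6 FPKM. HIF1A-AS2, which is antisense to the end of the hypoxia factor gene HIF1A, went from 13.7 and 13.9 to 9.08 FPKM. HIF1A moved the same way (21.0, 19.9 and 15.1 FPKM) and just missed the threshold (limma adjusted p = 0.0514). LPP-AS2 went from 2.92 and 2.88 to 1.77 FPKM, beside LPP, a focal adhesion gene, at 7.31, 7.05 and 7.27 FPKM. CHKB-AS1 went from 5.72 and 6.19 to 3.94 FPKM, beside CHKB, a choline kinase gene, at 21.1, 19.3 and 19.6 FPKM. CHKB-CPT1B, whose start is 61 bases from that of CHKB-AS1 on the other strand, was at 1.56, 1.06 and 1.94 FPKM. LINC00674 went from 9.74 and 9.33 to 6.29 FPKM. In each of these 5 genes siE2F1 lay below both controls, and the controls lay within 0.1 log2 units of each other.

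Across the 151 genes siE2F1 was above both controls for 63 and below both for 58, where 43.8% and 40.2% of all genes tested were. The members' shares were 41.7% and 38.4%. Their median log2 fold change was -0.01, against 0.01 for all genes tested, and their median absolute log2 fold change 0.18, against 0.17. Antisense genes had a median absolute change of 0.22 and LINC genes of 0.11, with 10 of 95 and 4 of 55 called. The controls of antisense genes also lay further apart, by a median of 0.115 log2 units against 0.073 for LINC genes. The change was larger than the control difference in 65.3% of antisense and 61.8% of LINC genes. The summed level was 1282, 1291 and 1215 FPKM, and without C17orf76-AS1 and PCNA-AS1 742, 748 and 761 FPKM. On this scale, ENO1-AS1 and PITPNA-AS1 were the 2 members at least 1 log2 unit above both controls. ENO1-AS1 had to be higher in siE2F1 to be a member, which leaves PITPNA-AS1. Among all genes tested 0.294% were that far above. That far below were 0 members and 0.546% of all genes tested. With 0.1 FPKM added, LINC00842 (above) and FLVCR1-AS1 (below) also passed that size, though FLVCR1-AS1 had to be lower to be a member.

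**Figure D2:**
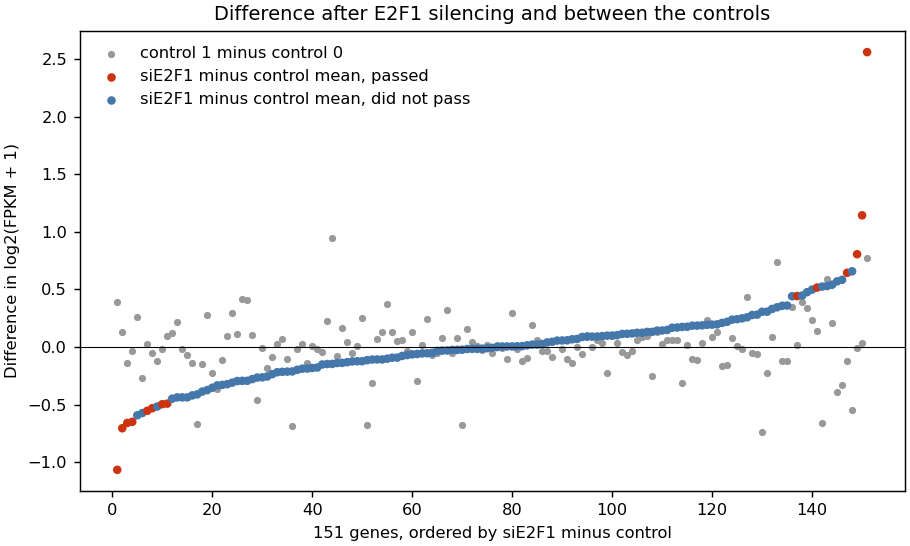
Difference in log2(FPKM + 1) between siE2F1 and the control mean for the 151 genes, ordered from lowest to highest (red, passed; blue, did not pass), with the difference between the controls for the same gene in grey. The siE2F1 differences run from -1.07 to 2.56, and 11 genes have controls at least 0.5 log2 units apart.

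**Figure D3:**
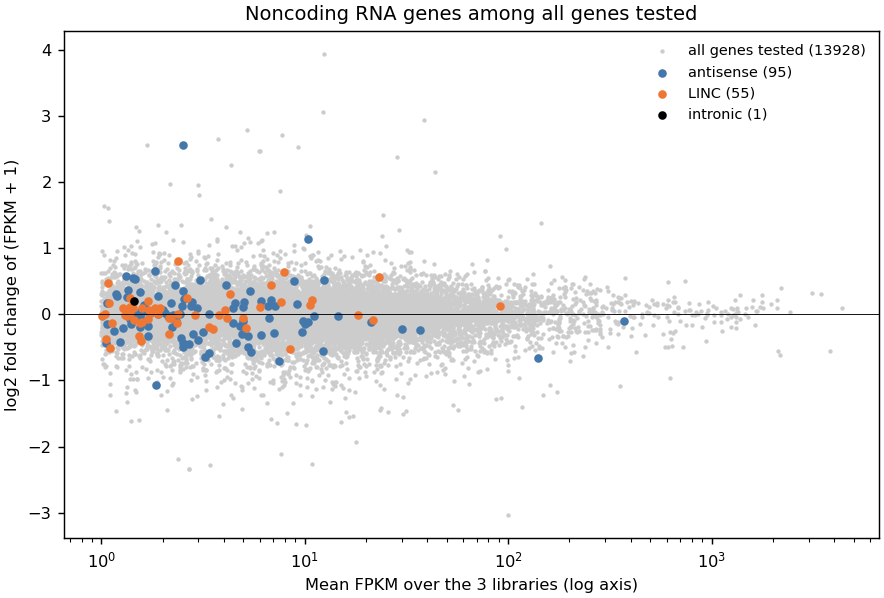
Log2 fold change of (FPKM + 1) against the mean FPKM over the 3 libraries (log axis) for all 13928 genes tested (grey), with antisense (95), LINC (55) and intronic (1) genes in colour. Most of the coloured points lie below 5 FPKM (110 of 151) and inside the spread of the grey points.

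Large gaps between the controls occurred in this set. For 11 of the 151 (7.28%) the controls were at least 0.5 log2 units apart, against 1.90% of all genes tested and 4.37% of the genes tested under 5 FPKM. UBL7-AS1 had 0.485, 1.87 and 0.864 FPKM, and THAP9-AS1 had 14.1, 8.43 and 10.7 FPKM. For both genes siE2F1 lay between the controls. The same held for PAXBP1-AS1 (1.97 and 0.853, then 1.03 FPKM), VPS13A-AS1 (1.56 and 0.537, then 1.45 FPKM), MORC2-AS1 (3.45 and 6.45, then 6.31 FPKM) and LINC00839 (2.29 and 1.06, then 1.41 FPKM). LINC00476 had 2.46, 1.18 and 1.06 FPKM, with siE2F1 below the nearer control by only 0.08 log2 units.

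Some genes lay well outside both controls without passing the test. On the higher side these were FAM13A-AS1 (0.968, 1.27 and 2.07 FPKM), NPPA-AS1 (1.22, 0.764 and 1.97 FPKM), MYLK-AS1 (1.85, 0.955 and 2.72 FPKM) and IQCH-AS1 (6.99, 8.40 and 11.2 FPKM). LINC00652 (0.629, 1.06 and 1.55 FPKM), GNAS-AS1 (1.24, 1.06 and 1.75 FPKM), HPN-AS1 (2.37, 2.09 and 3.14 FPKM) and STARD4-AS1 (1.28, 1.42 and 1.95 FPKM) were nearer to their controls. LINC00152, given above, had a log2 fold change of 0.57. These genes were named for lying above both controls, and NPPA-AS1 and LINC00652 reached the level rule only through siE2F1. Among tested genes of at least 5 FPKM alone, IQCH-AS1 passed (limma adjusted p = 0.0366). GNAS, the gene of a G protein subunit, was at 580, 533 and 622 FPKM, and 1127 exon bases of GNAS-AS1 (30.8%) overlap it.

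On the lower side were DHRS4-AS1 (3.49, 4.37 and 2.25 FPKM), LINC00574 (1.43, 1.24 and 0.631 FPKM), TP73-AS1 (6.88, 5.54 and 3.82 FPKM) and MAFG-AS1 (2.90, 3.25 and 1.98 FPKM). GTSE1-AS1 (2.95, 2.76 and 1.85 FPKM) and H1FX-AS1 (1.56, 1.32 and 0.822 FPKM) followed, with TMPO-AS1 given above. These genes were named for lying below both controls, and LINC00574, H1FX-AS1 and TMPO-AS1 reached the level rule only through the controls. Among tested genes of at least 5 FPKM alone, TP73-AS1 passed (limma adjusted p = 0.0337). The partner of TP73-AS1, the p53 relative TP73, was at 0.401, 0.343 and 0.429 FPKM, too low to test.

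Antisense and intronic genes were then set beside their partners. Of 96 such members 94 had a partner row, and both genes were tested in 83 pairs. The partner had the higher level in 71 of the 83, and the median antisense level in the controls was 26.2% of the partner's. The log2 fold changes had the same sign in 47 pairs and opposite signs in 36. Across the 83 pairs Pearson's r was 0.20 and Spearman's rank correlation 0.26. Without ENO1-AS1 r was 0.33. The points share the same 3 libraries and, where exons overlap, the same reads, so these are descriptions. GENCODE gave positions on opposite strands for 76 pairs, with exon overlap in 53 (a median of 332 bases). The same sign was seen in 29 of those 53 and in 13 of the 23 without overlap. Of the 38 pairs that start head to head within 1000 bases, 18 had the same sign (47.4%).

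**Figure D4:**
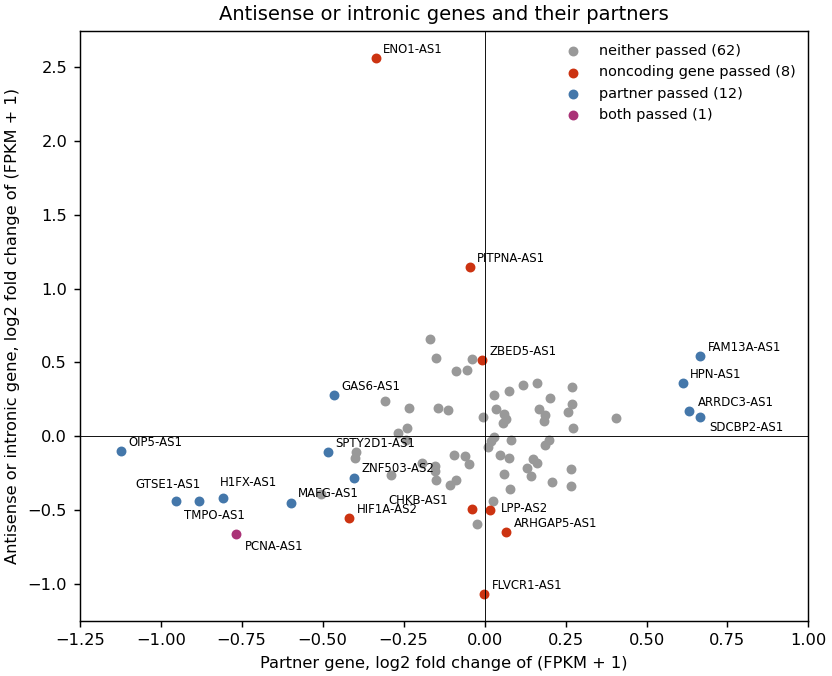
Log2 fold change of (FPKM + 1) of the antisense or intronic gene against that of its partner for 83 pairs, coloured by which of them passed the test. PCNA-AS1 with PCNA is the 1 pair in which both passed, ENO1-AS1 and PITPNA-AS1 lie high above partners near 0 or below, and FLVCR1-AS1 lies below a partner at 0.

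The partner passed in 13 pairs, 9 lower and 4 higher. The antisense gene lay on the same side of 0 in 8 of the 9 and in all 4, where 47 of all 83 pairs had the same sign. The 8 include PCNA-AS1, which lies within PCNA, and OIP5-AS1, whose siE2F1 value lay between the controls. They also include TMPO-AS1 and H1FX-AS1, which reached the level rule only through the controls and had to be lower. PCNA, given above, was 1 of the 9. GTSE1, a gene of G2 and S phase, fell from 10.5 and 10.1 to 4.84 FPKM, with GTSE1-AS1 at -0.44 log2 units and no shared exon bases. TMPO, which encodes lamina-associated polypeptides, fell from 49.1 and 50.2 to 26.5 FPKM, with TMPO-AS1 at -0.44 and 713 shared exon bases (21.2% of its exons). H1FX, a linker histone gene, fell from 68.3 and 79.4 to 41.7 FPKM, with H1FX-AS1 at -0.42 and 345 shared exon bases (10.1%). MAFG, a small Maf transcription factor gene, fell from 10.5 and 10.6 to 6.63 FPKM, with MAFG-AS1 at -0.45. These antisense genes did not pass.

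OIP5-AS1 and its partner moved apart in size. OIP5, which encodes a centromere protein, fell from 16.2 and 17.6 to 7.22 FPKM (log2 fold change -1.12, limma adjusted p = 0.0272). OIP5-AS1 had 8.64, 11.5 and 9.24 FPKM, with siE2F1 between the controls. The exons of the pair overlap by 470 bases, or 3.71% of the exon bases of OIP5-AS1. SPTY2D1, a histone chaperone gene (-0.48), and ZNF503, a zinc finger gene (-0.40), also fell, beside SPTY2D1-AS1 at -0.11 (717 shared exon bases, 31.4%) and ZNF503-AS2 at -0.28 (0 shared). GAS6, the gene of a ligand of TAM receptors, was the exception in sign. It fell from 5.09 and 5.01 to 3.39 FPKM (-0.46), with GAS6-AS1 at 1.77, 1.66 and 2.29 FPKM (0.28).

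The 4 partners that rose were FAM13A (6.09 and 6.97 to 10.9 FPKM), HPN, which encodes the prostate serine protease hepsin (29.4 and 33.4 to 48.5 FPKM), SDCBP2, a syntenin gene (4.743 and 5.204 to 8.461 FPKM), and ARRDC3, an arrestin domain gene (21.2 and 24.9 to 36.1 FPKM). Their antisense genes had log2 fold changes of 0.54 for FAM13A-AS1, 0.36 for HPN-AS1, 0.13 for SDCBP2-AS1 and 0.17 for ARRDC3-AS1. None of these 4 antisense genes passed. Shared exon bases were 825 for FAM13A-AS1 (18.3% of its exons), 349 for HPN-AS1 (31.0%), 120 for SDCBP2-AS1 (2.96%) and 145 for ARRDC3-AS1 (5.12%).

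RefSeq promoters were matched for 117 of the 151 genes, 13 of the 14 called genes among them. An E2F-type TTTNGCGC match was present in 3 of the 117 (2.56%), against 1.83% of 27305 promoters of the same length. These were PCNA-AS1, DNAJC9-AS1 (log2 fold change 0.06) and RSBN1L-AS1 (0.19). The interferon-type match was present in 4 (3.42%, against 3.65%): LINC00875, FAM13A-AS1, STARD4-AS1 (0.33) and TSC22D1-AS1 (0.17). LINC00875 alone passed. TATAAA was present in 10 (8.55%, against 11.95%). The median GC content was 63.3% for the matched members and 58.3% for all promoters. A match is a description of letters, not of binding.

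Other long noncoding RNA genes, whose symbols do not follow these name patterns, were read from a list of 40, of which 24 had a row and 17 were tested. DANCR, a host of small nucleolar RNAs, rose from 72.4 and 70.0 to 96.6 FPKM (log2 fold change 0.44, limma adjusted p = 0.0443). TUG1 fell from 25.9 and 24.9 to 17.8 FPKM (-0.49, limma adjusted p = 0.0403). Of the 17, 9 were above both controls and 4 below, with a median log2 fold change of 0.07. NEAT1, the scaffold of paraspeckles, was at 158, 144 and 179 FPKM and GAS5, a growth arrest-linked host gene, at 169, 153 and 211 FPKM. MALAT1, a nuclear speckle RNA, was at 17.1, 13.3 and 16.4 FPKM, between the controls. HOTAIR, from the HOXC cluster, was at 1.62, 1.73 and 1.63 FPKM, also between the controls.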

How the data were processed

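RNA libraries of LNCaP-abl cells, 2 control and 1 siE2F1, were analysed. Per the submitters' processing notes, the authors used TopHat2 2.0.4 and Cufflinks 2.0.2 on hg19. Not given in the sources used here is the gene annotation. The authors deposited log2 FPKM. FPKM was computed as 2 to the deposited value minus 0.1, the lowest value being log2 of 0.1, and genes at it are called listed at 0. The libraries share nearly one distribution of values, so a change common to most genes cannot be seen.

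Values were analysed as log2(FPKM + 1). Genes averaging 1 FPKM or more entered limma 3.58.1 in R 4.3.3 (mean-variance trend, two-sided, Benjamini-Hochberg at 0.05 over all genes tested). Small RNA genes (names starting with SNOR, SCARNA, MIR or RNU, host genes kept) were left out because short genes have unsteady FPKM, and the fit that includes them is given beside the calls. The spread comes from the controls alone, and siE2F1 is assumed to vary as they do. The fit was also run on simulated data in which siE2F1 had the same spread as the controls, so this could not check that assumption. Members, lists and the exclusion of small RNA genes were chosen with earlier results of these data known.

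Named genes are E2F1, up to 15 members per direction (called first, then those farthest beyond the nearer control), the 12 of highest level, the 8 with the largest difference between the controls, the 3 on either side of the level threshold, partners, and tested genes of the list of other noncoding RNAs. The levels of 1 of the 12 are not reported here. LINC00657, LINC00478 and the protein-coding members were named after their values were seen, as were the motif matches and the partners that passed. Pairs were classed with GENCODE release 29 and names with RefSeq, both on GRCh38, joined by symbol. A head-to-head pair starts within 1000 bases on opposite strands. Alternatives tried were another pseudocount, other filters on FPKM, a common median, no trend, small RNA genes included, nothing subtracted, and each control left out.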

Additional observations from a re-analysis of the deposited data

How the results depend on the processing

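No paired analysis was possible because the labels give the siE2F1 library no number that it shares with a control. With small RNA genes included, and with no filter on mean FPKM, limma called 0 members higher and 0 lower (29 and 27 members at an unadjusted p under 0.05). The 14 calls had adjusted p-values from 0.0949 to 0.132 and from 0.169 to 0.191 there. Of the 14, 10 were kept with no mean-variance trend. A pseudocount of 0.1 put 1 member at least 1 log2 unit below both controls and 3 above, and dropped ENO1-AS1 from the calls. A minimum of 5 FPKM left 41 members, of which 5 were called higher and 6 lower, IQCH-AS1 and TP73-AS1 among them. There 1 member was at least 1 log2 unit above both controls, and 13 of 21 pairs had the same sign. Why these counts changed was not tested. Leaving out a control gives values with no test: 0 to 1 members at least 1 log2 unit below and 2 to 2 above, with 46 to 47 pairs of the same sign. In siE2F1 30 members lay between the controls, so that their sign depends on the control used. Among those named for their level or control difference, 11 turned sign with a control left out. Their log2 fold changes ranged from -0.25 to 0.0037 for NCBP2-AS2, -0.096 to 0.061 for LINC00665 and -0.064 to 0.014 for ZNF667-AS1. The ranges were -0.19 to 0.13 for LINC00899, -0.046 to 0.055 for LINC00470, -0.62 to 0.33 for UBL7-AS1 and -0.026 to 0.72 for MORC2-AS1. They were -0.061 to 0.67 for VPS13A-AS1, -0.55 to 0.13 for PAXBP1-AS1, -0.36 to 0.32 for THAP9-AS1 and -0.45 to 0.22 for LINC00839. In all 11 siE2F1 lay between the controls, and why the controls differed was not tested. The unsubtracted values kept the counts of calls at 6 and 8. A common median left the values unchanged, because the libraries already share nearly one distribution, so it could not test the calls. Depth is unknown and limits low genes most.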

Other observations

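Among genes of the same name pattern under the mean of 1 FPKM, 15 had at least 1 FPKM in some library. These values were picked after they were seen and carry no test. In control 0, control 1 and siE2F1, LINC00339 had 0.0729, 0.0809 and 2.54 FPKM and CCDC74B-AS1 0.0156, 0.0155 and 1.65 FPKM. SLC25A5-AS1 had 1.12, 0.986 and 0.00178 FPKM, LINC00630 1.14, 1.41 and 0.00222 FPKM and LINC00035 1.04, 1.03 and 5.75e-05 FPKM. In these 5 genes the controls lay close together and siE2F1 far from both. Jumps of the same size also occurred between the controls. DNAJC27-AS1 was at 0.0159 and 1.39 FPKM in control 0 and control 1, TOPORS-AS1 at 0.0130 and 1.13 FPKM, TOB1-AS1 at 0.00319 and 1.39 FPKM, and IDI2-AS1 was listed at 0 in control 0 and at 1.71 FPKM in control 1. Their siE2F1 values were 1.51, 1.29, 0.000508 and 0.866 FPKM.

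In RefSeq 13 members now carry names ending in -DT, for divergent transcripts, a grouping chosen after the values were seen. Of these, 9 were below both controls and 1, OSER1-AS1 (0.727, 1.60 and 2.06 FPKM), above both, with a median log2 fold change of -0.24, beside 40.2% below and 43.8% above among all genes tested. FLVCR1-AS1 and CHKB-AS1 are the 2 that passed, both lower, where 6.36% of all genes tested were called lower. Under 1 FPKM in siE2F1 were FLVCR1-AS1, USP27X-AS1 and UBL7-AS1. They reached the level rule only through the controls and had to be lower than the control mean. The count below and the median therefore rest in part on the level rule.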
